A study of Mus musculus with 15 samples.

Results

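The genes described are 41 listed genes of the interferon response and of antigen presentation, chosen by name and read across every array of a mouse choroid plexus tumour series. Of these, 38 were measured, among 22180 genes in all, and Ifi44, Gbp2 and Cd74 had no probe set that was paired with that gene alone. They were ordered by role into 7 signal transducers and transcription factors, 5 sensors of RNA and other nucleic acids, 15 interferon-stimulated effectors, 7 genes of class I processing and presentation, and 4 of class II presentation. The choroid plexus is the secretory epithelium of the brain ventricles, with a stroma of vessels, fibroblasts and immune cells.

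The series held 15 arrays, with 5 biological replicates in each of 3 groups of mixed C57Bl/6 and 129 background. Choroid plexus carcinomas came from Atoh1-Cre; Myc/Myc; p53fl/fl mice, papillomas from Atoh1-Cre; Myc/Myc mice, and normal choroid plexus from Myc/Myc; p53fl/fl mice, so that the controls carried the Myc and floxed p53 alleles without Cre. The papilloma genotype names no floxed p53, so papillomas also differ from the controls in that allele. In that comparison, tumour state and the floxed p53 allele cannot be told apart. Carcinomas and papillomas differ in that allele too, so between them tumour type and the floxed p53 allele cannot be told apart either. Atoh1-Cre is driven by the gene of a transcription factor of hindbrain progenitors. Tumours were taken when mice showed signs of disease, no ages were given, and whole snap-frozen tissue was used. Values are log2 intensities normalised by the authors, and differences are therefore log2 differences, where 1 is a doubling of signal. A gene was called changed at an adjusted p under 0.05 in limma's moderated test over all 22180 genes.

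Interferons are secreted proteins that signal through receptor-bound kinases to STAT and IRF transcription factors. Type I interferons act mainly through a complex that holds STAT2 and IRF9 and binds the interferon-stimulated response element in the promoters of antiviral genes, and interferon gamma acts mainly through the gamma-activated site. Both raise the machinery that loads peptides on class I molecules, and interferon gamma also induces Ciita, the master activator of class II genes. In the brain, class II molecules are carried mainly by macrophages, dendritic cells and B cells, and the choroid plexus holds resident macrophages in its stroma and on its surface.

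Some arrays stood apart. Carcinoma array 4 was the highest of the 5 carcinomas for 32 of the 38 genes, against 28.7% of all genes, and results that rest on it are given with and without it. The array was set apart by its values for these same genes. Leaving it out therefore lowers the carcinoma mean, and can shrink the spread, of each gene for which it was highest. Adjusted p-values without it describe that fit and are no independent test. Normal arrays 2 to 5 carried both Xist, at 10.69 to 12.48, and Y-linked transcripts, at a mean of 7.72 to 9.74, whereas normal array 1 and each tumour array carried only one of these at a high level. The labels do not mention pooled animals, and the source of these transcripts was not tested. Array medians lay between 6.79 and 6.90, which the authors' normalisation fixes in large part. The epithelial marker Ttr, which encodes the thyroid hormone carrier transthyretin, averaged 14.46 in carcinomas, 14.47 in papillomas and 14.56 in normal tissue, near the top of the arrays' range. Folr1, the folate receptor of this epithelium, averaged 10.68 in carcinomas, 11.14 in papillomas and 11.87 in normal tissue. Myc lay at 8.17 to 8.97 in carcinomas, at 8.07 to 8.45 in papillomas and at 7.52 to 7.72 in normal tissue.

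**Figure D1:**
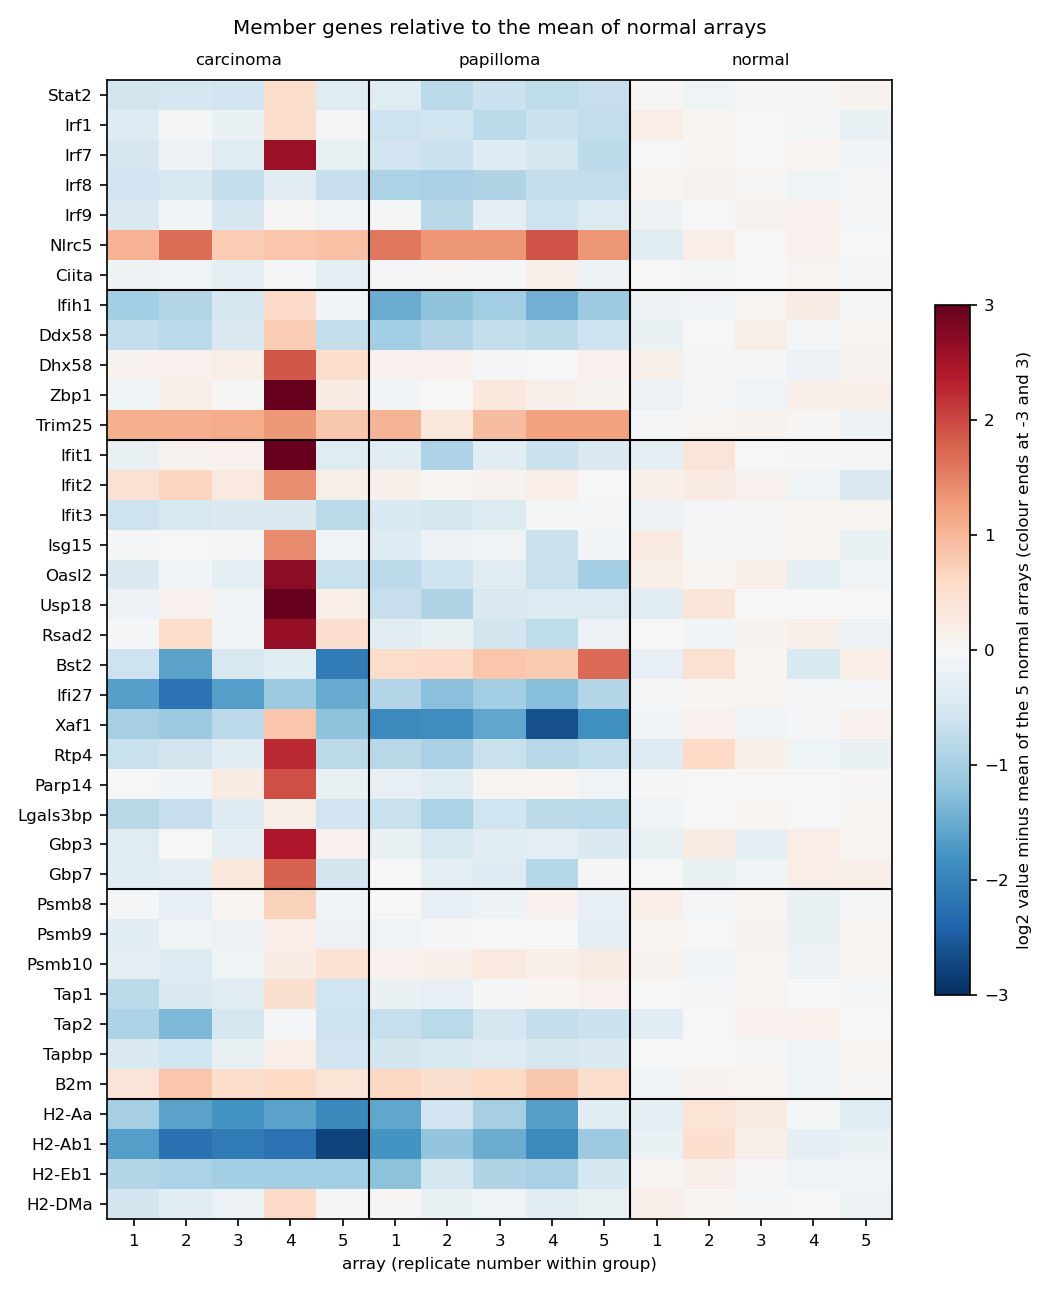
Log2 value of each of the 38 genes on each of the 15 arrays, minus the mean of the 5 normal arrays (colour scale, ending at -3 and 3), with genes in rows by role and arrays in columns by group. Carcinoma array 4 stands out in red over many of the effectors and sensors, while Ifi27, Ifit3 and Bst2 lie below the normal mean there. Nlrc5, Trim25 and B2m are red in both tumour types, and the class II chains H2-Aa, H2-Ab1 and H2-Eb1 are blue in every tumour array.

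In carcinomas, 4 of the 38 genes were higher than in normal tissue and 10 were lower. Among all genes tested, 18.7% were higher and 19.2% lower, so that neither count stood far from the background. The median difference of the 38 genes was -0.07, against -0.02 for all genes. Without carcinoma array 4, the same 4 genes were higher, 19 were lower and the median was -0.28, while 19.3% of all genes were higher and 20.1% lower.

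In papillomas, 4 of the 38 genes were higher than in normal tissue and 15 were lower, where 17.0% of all genes were higher and 16.3% lower. The median of the 38 genes was -0.42, against 0.01 for all genes. Because the model pools its variance over the groups, leaving out carcinoma array 4 also sharpened this comparison: 22 genes were then lower, at the same differences, with 17.9% of all genes higher and 17.4% lower. Both tumour types were set against the same 5 normal arrays, so the values for each are given side by side and are not independent of each other. The counts by role and by cell marker list below stand beside the same shares of all genes. These were 18.7% higher and 19.2% lower in carcinomas, and 17.0% higher and 16.3% lower in papillomas. Each role or list holds few genes, so a small count can lie near these shares.

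**Figure D2:**
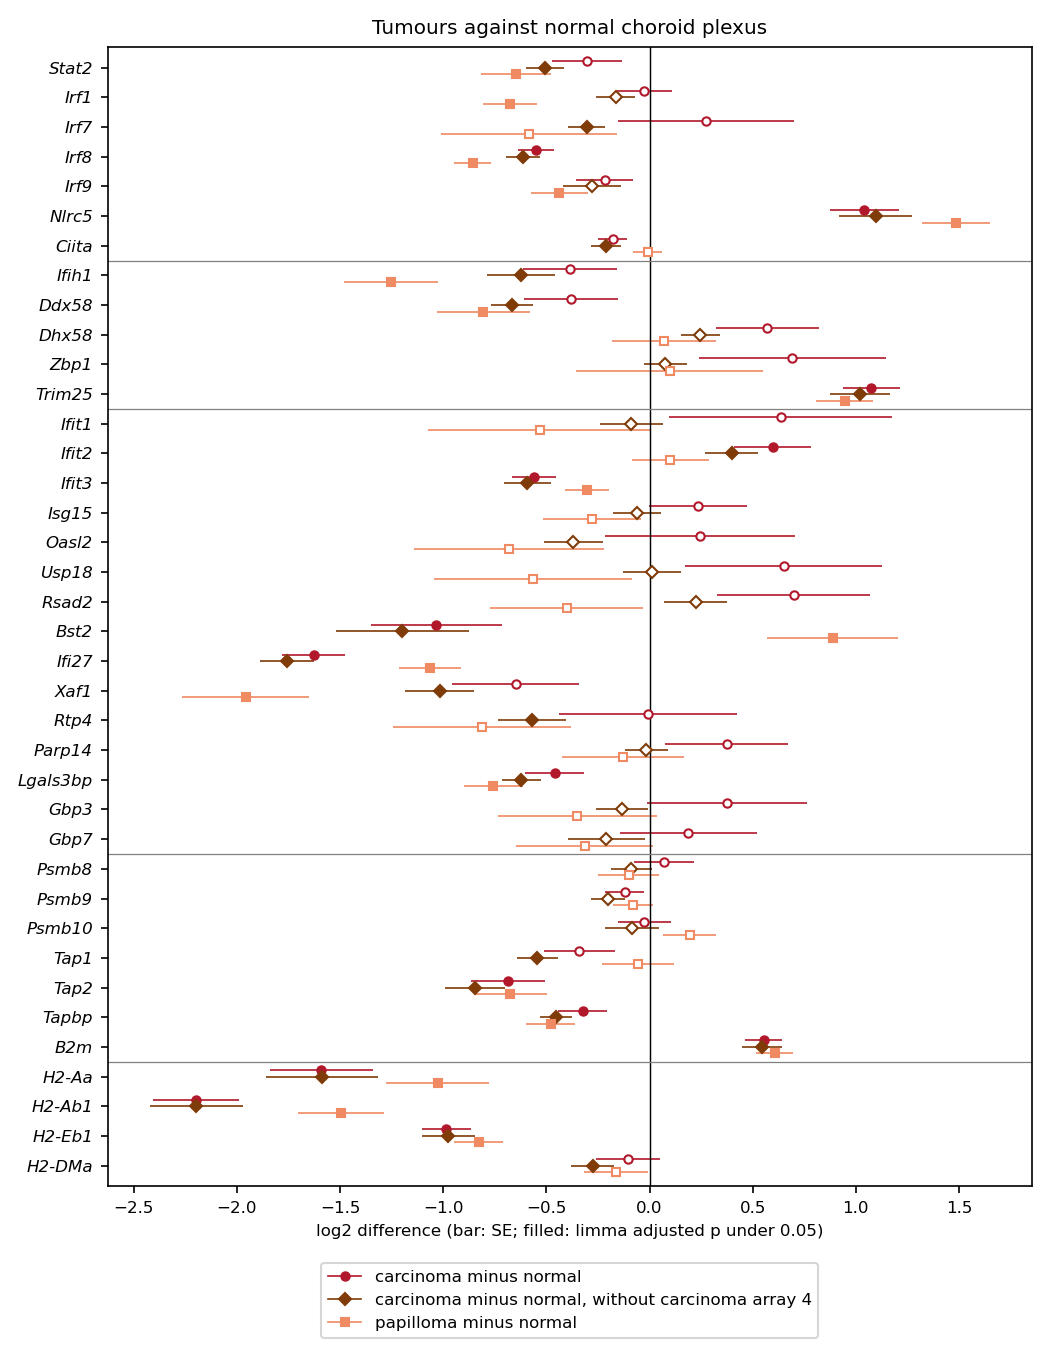
Log2 difference from normal tissue (horizontal axis, bars are SE) of each of the 38 genes in carcinomas (circles), in carcinomas without array 4 (diamonds) and in papillomas (squares), with filled symbols where the adjusted p was under 0.05. H2-Ab1, H2-Aa, Ifi27 and, in papillomas, Xaf1 lie farthest to the left, while Nlrc5 and Trim25 lie farthest to the right.

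Of the 4 class II genes, 3 were lower in each tumour type and none was higher, and H2-Ab1 showed the largest fall of the 38 genes in carcinomas. H2-Ab1 and H2-Aa encode the beta and alpha chains of the I-A molecule, which presents peptides to CD4+ T cells. H2-Eb1 encodes the beta chain of I-E. H2-Ab1 measured 8.01, 7.42, 7.55, 7.45 and 6.89 in carcinoma arrays 1 to 5, then 7.88, 8.47, 8.17, 7.75 and 8.58 in papilloma arrays 1 to 5, and 9.47, 10.16, 9.82, 9.40 and 9.48 in normal arrays 1 to 5. Every tumour array lay below every normal array. The gene fell by 2.20 ± 0.21 (SE) on the log2 scale in carcinomas, which is 4.59-fold lower (limma adjusted p = 4.46e-07). In papillomas it fell by 1.496 ± 0.21, 2.82-fold lower (adjusted p = 3.17e-05).

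H2-Aa measured 7.58, 6.96, 6.77, 6.97 and 6.63 in carcinomas, then 7.02, 8.002, 7.57, 6.92 and 8.22 in papillomas, and 8.30, 8.98, 8.83, 8.54 and 8.22 in normal tissue. The carcinomas lay below all normal arrays, and the highest papilloma was level with the lowest normal array. The log2 difference was -1.59 ± 0.25 in carcinomas (adjusted p = 8.16e-05) and -1.03 ± 0.25 in papillomas (adjusted p = 0.00412). H2-Eb1 measured 7.94, 7.86, 7.79, 7.79 and 7.79 in carcinomas, then 7.60, 8.31, 7.91, 7.84 and 8.30 in papillomas, and 8.89, 8.97, 8.86, 8.69 and 8.69 in normal tissue, with no overlap between tumours and normal tissue. It fell by 0.99 ± 0.12 in carcinomas (adjusted p = 5.75e-06) and by 0.83 ± 0.12 in papillomas (adjusted p = 4.26e-05). These 6 calls held under every alternative that was tried, and normal array 1 lay with the other normal arrays for each of these genes.

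Other genes around class II gave smaller values. H2-DMa, a chain of the DM molecule that exchanges peptides on class II, differed by -0.11 in carcinomas (adjusted p = 0.652) and by -0.16 in papillomas (adjusted p = 0.497). Carcinoma array 4 held its highest value, 8.80, and without that array it was lower in carcinomas, by -0.28 (adjusted p = 0.0455). Ciita lay at 7.06 to 7.31 in carcinomas, 7.21 to 7.52 in papillomas and 7.32 to 7.45 in normal tissue, and was called in neither tumour type (adjusted p = 0.0603 and 0.949). Without carcinoma array 4 it was lower in carcinomas, by -0.21 (adjusted p = 0.0301).

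In bulk tissue, fewer cells of a type and less RNA per cell cannot be told apart, so markers of the cells that carry class II were set beside these values. The mean of the 20 microglia and macrophage markers ran from 7.62 to 8.72 in carcinomas, from 7.70 to 7.84 in papillomas and from 7.80 to 8.08 in normal tissue. In carcinomas 1 of these 20 markers was higher (Cd68, a lysosomal protein of phagocytes, by 1.47, adjusted p = 0.000397) and 1 was lower (Lyz2, lysozyme, by -0.75, adjusted p = 0.0451), with 2 lower when carcinoma array 4 was left out. In papillomas none was higher and 2 were lower, Lyz2 by -1.03 (adjusted p = 0.00859) and Lyve1, a marker of border macrophages, by -0.36. The 3 class II chains averaged 7.11 to 7.84 in carcinomas, 7.50 to 8.37 in papillomas and 8.80 to 9.37 in normal tissue.

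Carcinoma arrays 2 and 4 had the highest macrophage marker means of all arrays, 8.34 and 8.72, with class II chain means of 7.41 and 7.40, below every normal array. Of 9 dendritic cell markers, 1 was higher in carcinomas (none without array 4) and none was lower, and in papillomas none was higher and 1 was lower. The 5 B cell markers gave 1 higher and none lower in carcinomas, with no call in papillomas. Their means were dim, at 6.41 to 6.72 in carcinomas, 6.48 to 6.65 in papillomas and 6.29 to 6.55 in normal tissue. These lay below the lowest array median of 6.79. The part of cell numbers in the fall of the class II chains was not tested further.

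**Figure D3:**
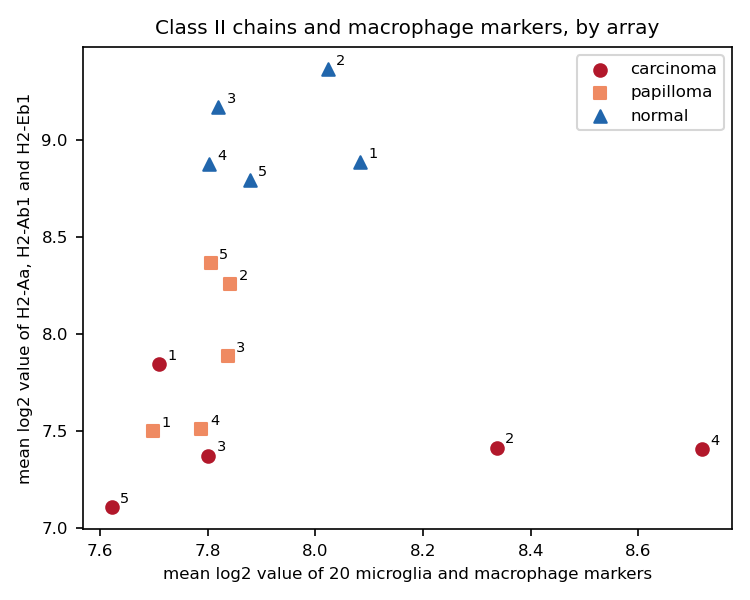
Mean log2 value of H2-Aa, H2-Ab1 and H2-Eb1 (vertical axis) against the mean log2 value of 20 microglia and macrophage markers (horizontal axis) on each array, numbered by replicate. The normal arrays lie at 8.80 to 9.37 on the vertical axis, above the papillomas at 7.50 to 8.37 and the carcinomas at 7.11 to 7.84, while on the horizontal axis carcinomas 2 and 4 lie to the right of all other arrays.

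Of the 7 class I genes, 1 was higher and 2 were lower in each tumour type. Class I molecules present peptides made in the cell to CD8+ T cells, and B2m encodes their shared light chain, beta 2 microglobulin. B2m measured 13.60, 14.04, 13.73, 13.79 and 13.61 in carcinomas, then 13.81, 13.67, 13.80, 14.004 and 13.73 in papillomas, and 13.11, 13.30, 13.28, 13.07 and 13.24 in normal tissue. All tumour arrays lay above all normal arrays, and the log2 differences were 0.55 ± 0.09 in carcinomas (adjusted p = 0.000138) and 0.61 ± 0.09 in papillomas (adjusted p = 7e-05).

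Tap2 and Tapbp were lower. Tap2, a subunit of the transporter that carries peptides into the endoplasmic reticulum, fell by 0.69 ± 0.18 in carcinomas (adjusted p = 0.00566, or 0.0852 with unpooled variance per group) and by 0.68 ± 0.18 in papillomas (adjusted p = 0.00722). Tapbp encodes tapasin, which holds class I molecules at that transporter, and fell by 0.48 ± 0.12 in papillomas (adjusted p = 0.00492). In carcinomas its difference was -0.32 ± 0.12 (adjusted p = 0.0428), a call that ended in 12 of 15 fits that left out 1 array, with an adjusted p of up to 0.114, and that leaving out carcinoma array 4 strengthened (adjusted p = 0.00026). Unpooled variance per group also ended the Tapbp call in carcinomas. Tap1, the partner subunit, was called in neither tumour type with all arrays and was lower in carcinomas without array 4, by -0.54 (adjusted p = 0.00041).

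The immunoproteasome subunits Psmb8, Psmb9 and Psmb10, which shape the peptides that class I receives, had no call in either tumour type. Their differences lay between -0.12 and 0.07 in carcinomas and between -0.10 and 0.19 in papillomas. On chromosome 17, 9 of the 38 genes lie together in the major histocompatibility complex, in the order Tapbp, H2-DMa, Psmb9, Tap1, Psmb8, Tap2, H2-Ab1, H2-Aa and H2-Eb1. Of these 9, the 4 that stand between Tapbp and Tap2 (H2-DMa, Psmb9, Tap1 and Psmb8) were the ones without a call in either tumour type with all arrays. The chromosome 17 genes as a whole were shifted by -0.04 to 0.03 in single carcinomas relative to normal tissue.

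Of the 7 transcription factors and signal transducers, 1 was higher and 1 lower in carcinomas, and 1 was higher and 4 were lower in papillomas. The higher one was Nlrc5 in each. Nlrc5 is the class I transactivator, a relative of Ciita that drives class I heavy chain, B2m and Tap1 genes. It measured 7.90, 8.54, 7.62, 7.68 and 7.73 in carcinomas, then 8.44, 8.16, 8.17, 8.73 and 8.18 in papillomas, and 6.53, 7.05, 6.86, 6.97 and 6.86 in normal tissue, with no overlap between tumour and normal arrays. The log2 difference was 1.04 ± 0.17 in carcinomas (adjusted p = 9.78e-05) and 1.48 ± 0.17 in papillomas (adjusted p = 3.32e-06). Both calls held under every alternative tried.

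Irf8, a factor of macrophage and dendritic cell development, fell in carcinomas by 0.55 ± 0.09 (adjusted p = 0.000102) and in papillomas by 0.86 ± 0.09 (adjusted p = 1.33e-06), and its second, dimmer probe set gave -0.31 and -0.06. In papillomas Stat2 fell by 0.65 ± 0.17 (adjusted p = 0.00728), and Irf1, an activator of class I genes, fell by 0.68 ± 0.13 (adjusted p = 0.000749). Irf9, the DNA-binding partner of STAT2, was lower there by -0.44 (adjusted p = 0.0218), a call that ended without papilloma array 2 or 4 or normal array 3 or 4, with adjusted p of 0.051 to 0.0595. The Irf9 call was also lost with unpooled variance per group and with the replicate number as a block. In carcinomas Stat2, Irf1, Irf7 and Irf9 had no call with all arrays. Stat2 and Irf7, the amplifier of type I interferon production, were lower without carcinoma array 4, by -0.51 (adjusted p = 0.000346) and -0.31 (adjusted p = 0.0128).

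Of the 5 sensors, 1 was higher and none lower in carcinomas, and 1 was higher and 2 were lower in papillomas. Trim25 was the higher one in each. It encodes a ubiquitin ligase that activates RIG-I, the RNA sensor made by Ddx58. Trim25 measured 10.65, 10.66, 10.69, 10.88 and 10.40 in carcinomas, then 10.61, 9.93, 10.52, 10.78 and 10.79 in papillomas, and 9.52, 9.65, 9.69, 9.61 and 9.44 in normal tissue. Tumour arrays all lay above normal arrays, by 1.08 ± 0.14 on average in carcinomas (adjusted p = 1.3e-05) and by 0.95 ± 0.14 in papillomas (adjusted p = 5.84e-05).

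Ifih1 and Ddx58 were lower in papillomas. Ifih1, which encodes the long double-stranded RNA sensor MDA5, measured 8.76, 8.89, 9.26, 10.34 and 9.70 in carcinomas, then 8.29, 8.56, 8.74, 8.34 and 8.69 in papillomas, and 9.61, 9.67, 9.85, 10.002 and 9.74 in normal tissue. The papillomas lay below every other array, and the carcinomas spread across the normal range. Its log2 difference was -1.25 ± 0.23 in papillomas (adjusted p = 0.000414) and -0.38 ± 0.23 in carcinomas (adjusted p = 0.214), where it was -0.62 without carcinoma array 4 (adjusted p = 0.00703). Ddx58 fell by 0.81 ± 0.23 in papillomas (adjusted p = 0.0112) and differed by -0.38 in carcinomas (adjusted p = 0.216), or -0.67 without carcinoma array 4 (adjusted p = 9.1e-05). Dhx58, which encodes the regulator LGP2, and Zbp1, a sensor of Z-form nucleic acids, were called in neither tumour type.

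**Figure D4:**
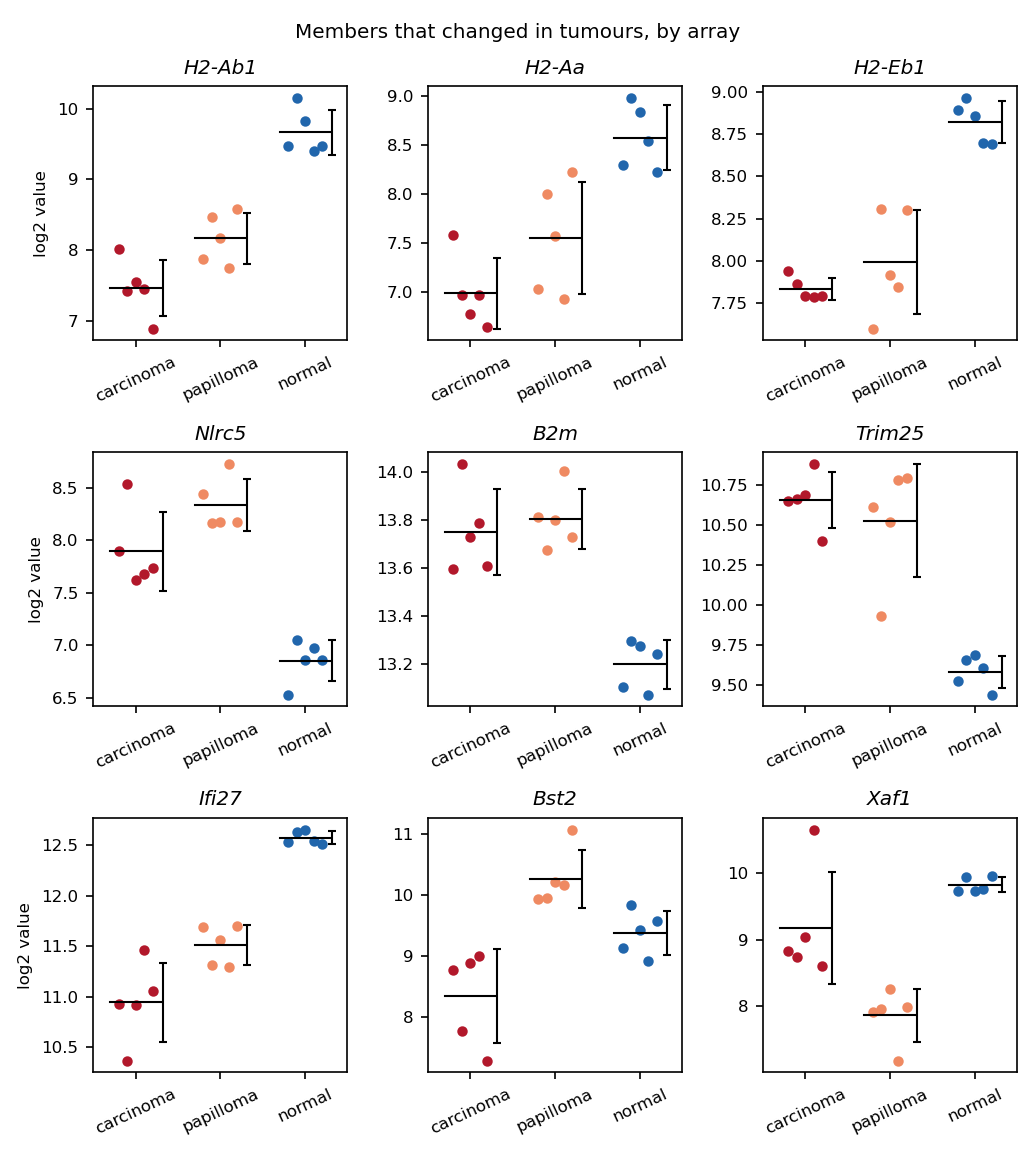
Log2 value on each array (points) of 9 of the 38 genes, with the group mean (line) and SD (bar), n = 5 arrays per group, and a vertical scale of its own in each panel. The class II chains H2-Ab1, H2-Aa and H2-Eb1 and the effector Ifi27 lie lower in tumours, Nlrc5, B2m and Trim25 lie higher, and Bst2 and Xaf1 take opposite orders in carcinomas and papillomas.

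Of the 15 effectors, 1 was higher and 4 were lower in each tumour type, counts not far from the shares of all genes. Ifi27, a small membrane protein that interferons induce, measured 10.93, 10.37, 10.92, 11.46 and 11.05 in carcinomas, then 11.69, 11.31, 11.56, 11.29 and 11.70 in papillomas, and 12.53, 12.63, 12.65, 12.54 and 12.51 in normal tissue. Every tumour array lay below every normal array. It fell by 1.63 ± 0.15 in carcinomas (adjusted p = 3.54e-07) and by 1.06 ± 0.15 in papillomas (adjusted p = 3.82e-05).

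Xaf1, a pro-apoptotic antagonist of the inhibitor XIAP, measured 8.83, 8.74, 9.04, 10.65 and 8.61 in carcinomas, then 7.92, 7.96, 8.27, 7.19 and 7.99 in papillomas, and 9.74, 9.94, 9.73, 9.76 and 9.95 in normal tissue. Carcinoma array 4 was the highest of all arrays, while the other carcinomas lay between the papillomas and normal tissue. The gene fell by 1.96 ± 0.31 in papillomas (adjusted p = 0.000102). In carcinomas the difference was -0.65 ± 0.31 with all arrays (adjusted p = 0.114) and -1.02 without array 4 (adjusted p = 0.000154).

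Bst2 moved in opposite directions in the tumour types. It encodes tetherin, a membrane protein that holds budding virus particles at the cell surface. Bst2 measured 8.77, 7.78, 8.89, 9.01 and 7.29 in carcinomas, then 9.94, 9.95, 10.21, 10.17 and 11.08 in papillomas, and 9.13, 9.85, 9.43, 8.92 and 9.58 in normal tissue. All papillomas lay above all normal arrays and all carcinomas lay below all papillomas, while the highest carcinoma overlapped the lowest normal array. The gene fell by 1.03 ± 0.32 in carcinomas (adjusted p = 0.0164) and rose by 0.89 ± 0.32 in papillomas (adjusted p = 0.0411). With unpooled variance per group, the carcinoma call was lost (adjusted p = 0.0964). The call in papillomas ended in 7 of 15 fits that left out 1 array (normal 1, 3, 4 or 5, or papilloma 3, 4 or 5), with adjusted p of 0.0533 to 0.113, and the difference was 0.69 without papilloma array 5.

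The IFIT genes, whose products bind viral RNA, did not move as a block. Ifit2 was higher in carcinomas, by 0.60 ± 0.19 (adjusted p = 0.0184), or by 0.40 without carcinoma array 4 (adjusted p = 0.0234), and the call ended without normal array 5 (adjusted p = 0.0551). Ifit3 fell by 0.56 ± 0.11 in carcinomas (adjusted p = 0.000479), and was lower in papillomas by -0.30 (adjusted p = 0.037), a call that ended in 7 of 15 fits that left out 1 array (normal 2, 3, 4 or 5, or papilloma 1, 2 or 3; adjusted p up to 0.0986). Ifit3 has a near copy, Ifit3b, whose probe set was higher in carcinomas by 0.37 (adjusted p = 0.0184), so that the split of signal between the pair is uncertain. Lgals3bp, a secreted glycoprotein, fell by 0.76 ± 0.14 in papillomas (adjusted p = 0.000618). In carcinomas it was lower by -0.46 (adjusted p = 0.0189), which missed the threshold without carcinoma array 1 or 2 (adjusted p of 0.0517 and 0.0558). With unpooled variance per group, the carcinoma calls of Ifit2 (adjusted p = 0.122) and Lgals3bp (adjusted p = 0.137) were also lost. The papilloma call of Ifit3 was lost under that setting too.

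The remaining 9 effectors (Ifit1, Isg15, Oasl2, Usp18, Rsad2, Rtp4, Parp14, Gbp3 and Gbp7) were called in neither tumour type with all arrays. Their differences lay between -0.01 and 0.70 in carcinomas and between -0.81 and -0.13 in papillomas. Without carcinoma array 4 the carcinoma differences lay between -0.57 and 0.22, and those of Ifit1, Isg15, Oasl2, Parp14, Gbp3 and Gbp7 were below 0. In that fit, Ifit1, Oasl2, Usp18, Rsad2, Rtp4 and Gbp3 were lower in papillomas, with differences of -0.81 to -0.35, and Rtp4 was also lower in carcinomas, by -0.57 (adjusted p = 0.0113).

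That array held a distinct profile. For 14 of the 38 genes, carcinoma array 4 lay more than 1 log2 unit above the next highest carcinoma, which was so for 109 of all 22180 genes (0.491%), and on each of these 14 it also lay above the other 14 arrays. These were 10 of the 15 effectors, 3 of the 5 sensors and 1 of the 7 transcription factors, with none of the 7 class I and none of the 4 class II genes. For 8 genes the gap exceeded 2 units: Ifit1, Usp18, Zbp1, Oasl2, Irf7, Rtp4, Gbp3 and Rsad2. Among the 20 largest such gaps of all genes, 8 were these.

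Ifit1, whose product binds RNA with foreign cap structures, measured 7.43, 7.75, 7.76, 11.17 and 7.28 in carcinomas, then 7.32, 6.72, 7.31, 7.001 and 7.21 in papillomas, and 7.35, 8.03, 7.66, 7.57 and 7.61 in normal tissue. Its value in array 4 was 10.6-fold above the next carcinoma, the largest gap of any gene measured. Usp18, the protease that removes ISG15 and dampens the type I receptor, measured 7.59, 7.91, 7.66, 10.97 and 7.95 in carcinomas, 8.07-fold above the next. Zbp1 measured 6.92, 7.23, 7.07, 10.21 and 7.27 in carcinomas and no more than 7.37 in papillomas or normal tissue. Irf7 measured 7.75, 8.10, 7.88, 10.84 and 8.04 in carcinomas, against 8.17 to 8.31 in normal tissue.

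The high values did not extend to every gene of the 38. Ifit3 measured 8.26 in array 4 and 8.25 in the next carcinoma, Bst2 9.01 and 8.89, and Ifi27 11.46 and 11.05, which is below the 12.51 of the lowest normal array. The class II chains H2-Aa (6.97) and H2-Ab1 (7.45) lay within the range of the other carcinomas, as did Nlrc5 (7.68) and B2m (13.79). H2-Eb1, at 7.79, was level with the lowest of them. Tap1 in array 4 reached 9.77 and Psmb8 8.06, above every papilloma and normal array.

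**Figure D5:**
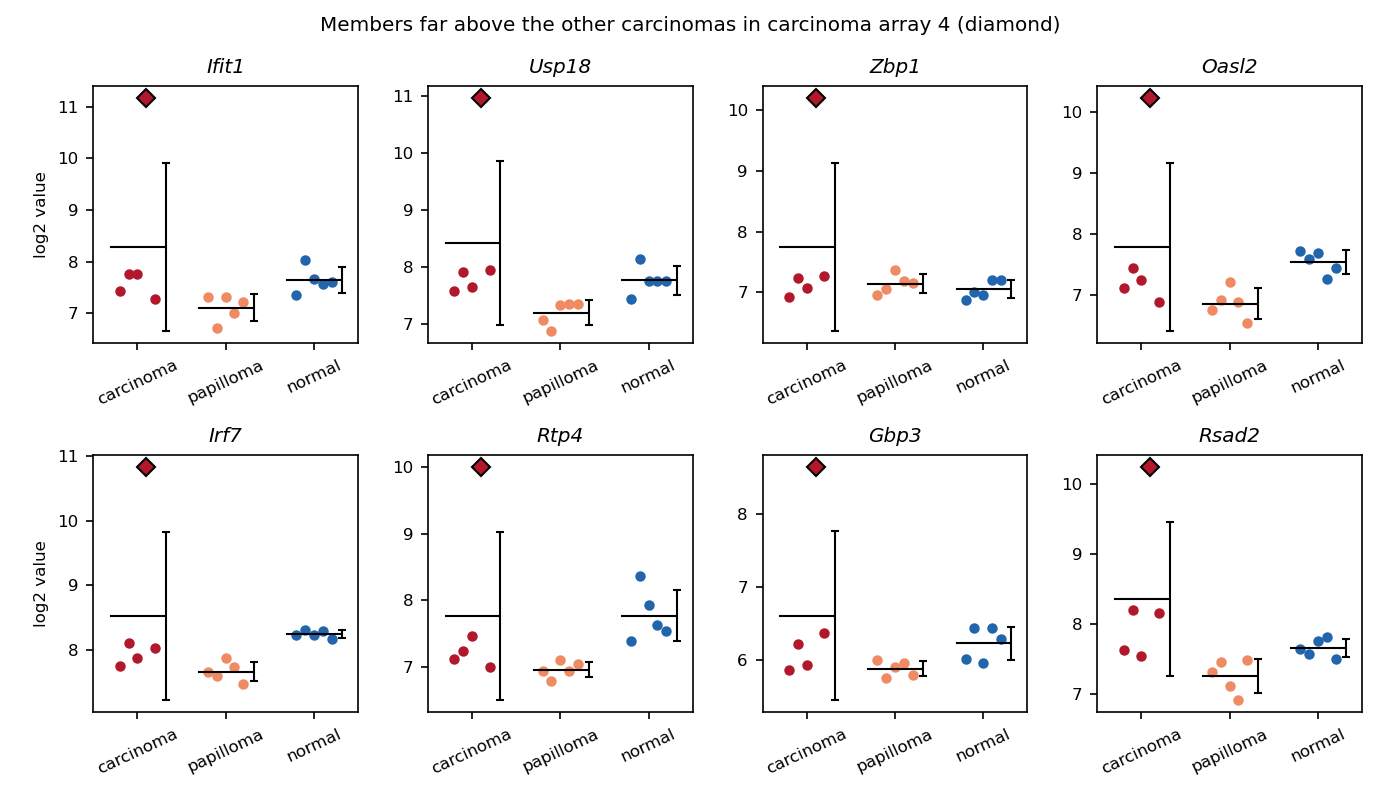
Log2 value on each array (points) of the 8 genes for which carcinoma array 4 (diamond) lay more than 2 log2 units above the next carcinoma, with the group mean (line) and SD (bar), n = 5 arrays per group. In each panel the diamond lies above every other array, and the other 4 carcinomas lie near the papillomas and normal arrays.

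Other interferon-stimulated genes showed the same array. On the list of 43 further measured effectors, carcinoma array 4 was highest of the carcinomas for 36 and more than 1 unit above the next for 10, and the list mean was 8.12 there, against 7.18 to 7.35 in the other carcinomas, 7.06 to 7.31 in papillomas and 7.50 to 7.60 in normal tissue. Of the interferon genes, Ifnb1 and Ifng were the ones on the lists used here. Ifnb1 measured 4.47 in array 4, against up to 4.95 in the other carcinomas, and Ifng measured 6.81, level with the highest of the others. Both lay below the array median of 6.83. The macrophage marker mean was 8.72 in array 4, against 7.62 to 8.34 in the other carcinomas. Of the 20 markers, 16 were at their highest among carcinomas there, against 28.7% of all genes. C1qb measured 11.38 there and at most 10.77 in the others. Ptprc, the leukocyte antigen CD45, measured 7.06 there and at most 6.32. Cd68 measured 10.22 there and up to 10.59 in the others. Mrc1 (6.81 against up to 7.55), Lyve1 (6.65 against 6.97) and P2ry12 (7.53 against 7.55) were not highest there either. Array 4 was highest of the carcinomas for 6 of 9 dendritic cell, 3 of 5 B cell and 4 of 11 T and NK cell markers. The T and NK cell marker mean was 6.10 in array 4, 5.96 to 6.03 in the other carcinomas and 6.06 to 6.25 in normal tissue. These T and NK cell means lay below every array median. The part of these cells in the profile was not tested.

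Promoter sequences are shown for 5 genes to set the presence of the response elements beside these values: Bst2, Trim25 and Xaf1 for their differences between tumour and normal tissue, and Ifit1 and Isg15, which were picked after their values were seen, for their level in carcinoma array 4. Each runs from 250 bases before to 50 bases after the start of the gene on its own strand, 5' to 3', from RefSeq on GRCm38.p6. Capitals mark matches on either strand to GAAA followed, after 2 bases of any kind, by GAAA, the core of the interferon-stimulated response element, or to TTCNNNGAA, the core of the gamma-activated site. The windows are chr8:71537423-71537722 (minus strand), chr11:88999153-88999452 (plus), chr11:72301379-72301678 (plus), chr19:34640639-34640938 (plus) and chr4:156200769-156201068 (minus).
Bst2: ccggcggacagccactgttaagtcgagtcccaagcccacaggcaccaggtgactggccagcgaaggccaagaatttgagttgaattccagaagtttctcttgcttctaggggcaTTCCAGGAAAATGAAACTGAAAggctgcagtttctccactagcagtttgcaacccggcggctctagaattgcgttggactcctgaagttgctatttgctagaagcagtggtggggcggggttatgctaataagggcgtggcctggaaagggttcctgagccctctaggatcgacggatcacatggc
Trim25: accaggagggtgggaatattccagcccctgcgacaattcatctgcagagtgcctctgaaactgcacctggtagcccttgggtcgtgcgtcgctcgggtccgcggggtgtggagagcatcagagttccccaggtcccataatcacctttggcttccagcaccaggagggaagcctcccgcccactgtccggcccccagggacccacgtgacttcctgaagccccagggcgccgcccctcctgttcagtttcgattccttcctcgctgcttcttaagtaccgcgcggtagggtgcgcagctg
Xaf1: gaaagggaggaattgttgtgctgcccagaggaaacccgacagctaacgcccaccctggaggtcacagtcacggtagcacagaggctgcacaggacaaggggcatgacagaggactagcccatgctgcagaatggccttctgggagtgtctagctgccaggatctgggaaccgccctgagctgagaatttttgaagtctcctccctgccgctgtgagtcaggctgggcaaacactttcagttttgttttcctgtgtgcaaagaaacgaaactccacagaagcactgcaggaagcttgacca
Ifit1: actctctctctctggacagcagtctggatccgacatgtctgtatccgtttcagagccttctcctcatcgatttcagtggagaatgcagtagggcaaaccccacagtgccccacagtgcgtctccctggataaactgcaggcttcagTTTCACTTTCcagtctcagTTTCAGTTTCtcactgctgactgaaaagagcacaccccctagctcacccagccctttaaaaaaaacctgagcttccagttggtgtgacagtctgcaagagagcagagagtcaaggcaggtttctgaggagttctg
Isg15: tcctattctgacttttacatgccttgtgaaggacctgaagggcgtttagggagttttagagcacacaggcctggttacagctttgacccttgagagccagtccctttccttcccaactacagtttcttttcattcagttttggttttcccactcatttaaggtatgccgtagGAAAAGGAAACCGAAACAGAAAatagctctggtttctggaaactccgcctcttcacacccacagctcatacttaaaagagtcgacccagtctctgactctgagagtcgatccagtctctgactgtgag

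Ifit1 held 2 response element cores, 104 and 85 bases before the start, and Isg15, which encodes the ubiquitin-like modifier, held 3 that overlap one another, from 78 to 66 bases before the start. Bst2 held 2 response element cores that overlap each other, at 130 and 124 bases before the start, and the first of them also overlaps a gamma-activated site core at 136 bases. Neither motif was found in these windows of Trim25 and Xaf1. Of the 38 genes, 28 had a promoter in the RefSeq table, which excludes Nlrc5 and H2-Ab1. A gene was counted if any of its windows held the motif. The response element core was found for 11 of the 28 (39.3%) and for 1079 of all 27025 genes with a promoter there (3.99%). It was in 6 of the 9 with a gap of more than 1 unit in carcinoma array 4 (66.7%) and in 5 of the other 19 (26.3%). The 38 genes were chosen by name for the interferon response and antigen presentation, and the 9 by their values in array 4. The other 19 include class I and class II genes. These shares therefore describe the windows and test no cause. The gamma-activated site core was found for 6 of the 28 (21.4%) and for 9.55% of all genes with a promoter. A match describes the letters of the window and is no measurement of binding.

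Between the tumour types, 4 of the 38 genes were higher in carcinomas than in papillomas and 3 were lower, where 6.24% of all genes were higher and 5.17% lower. The median difference was 0.30, against -0.03 for all genes, and 0.11 without carcinoma array 4. Bst2 showed the largest difference, -1.92 ± 0.32 (adjusted p = 0.00113), with every carcinoma below every papilloma. None of these 7 calls held with unpooled variance per group, where the lowest adjusted p of the 38 genes was 0.0864. Xaf1 was higher in carcinomas by 1.31 ± 0.31 (adjusted p = 0.0112), or by 0.94 without carcinoma array 4 (adjusted p = 0.00199), and Irf1 by 0.65 ± 0.13 (adjusted p = 0.00463), or by 0.51 (adjusted p = 0.0025), both with no overlap. Ifih1 was higher by 0.87 (adjusted p = 0.0222), which ended without carcinoma array 5 or papilloma array 1 or 4 (adjusted p up to 0.0536).

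The other 3 calls were near the threshold. Irf8 was higher in carcinomas by 0.31 (adjusted p = 0.0348), with the call ended in 6 of 15 fits that left out 1 array (carcinoma 1, 2 or 4, or papilloma 1, 2 or 3), at adjusted p of up to 0.0859. Its second, dimmer probe set went the other way, with a mean of 5.69 in carcinomas and 5.95 in papillomas. The Irf8 call was also lost with the mean of probe sets, so its direction depends on the probe set. Ifi27 was lower by -0.56 (adjusted p = 0.0234), and not called without papilloma array 1, 3 or 5 (adjusted p up to 0.0602). H2-Ab1 was lower by -0.70 (adjusted p = 0.0393), and not called in 8 of 15 such fits (without normal 3, carcinoma 2, 3, 4 or 5, or papilloma 2, 3 or 5; adjusted p up to 0.0978). Without carcinoma array 4 the calls were 5 higher (Irf1, Ifih1, Usp18, Rsad2 and Xaf1) and 3 lower (Bst2, Ifi27 and Tap1), with 7.38% of all genes higher and 6.32% lower.

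Some of the 38 genes lie on chromosomes whose genes were shifted together in most carcinomas. The median of all genes relative to normal tissue had a middle value over the 5 carcinomas of -0.11 for chromosome 8, -0.18 for chromosome 12 and -0.14 for chromosome 19. The shift varied by array, from -0.23 to 0.0068 on chromosome 8, from -0.28 to -0.015 on chromosome 12 and from -0.19 to 0.05 on chromosome 19. There, 9 of the 38 genes are found (Irf8, Nlrc5, Psmb10 and Bst2 on chromosome 8, Ifi27 and Rsad2 on 12, and Ifit1, Ifit2 and Ifit3 on 19). Of these, 6 were called in carcinomas, and the same 6 were called after each chromosome's shift was removed from each array. In papillomas the difference of Bst2 was then 0.87 and no longer called (adjusted p = 0.062). Each shift removed was a median over all measured genes of the chromosome, dim ones included, so it can be smaller than that of brighter genes. The part of the chromosome shifts in these calls was not tested further.

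Further genes of the pathway were read from lists, beside the shares of all genes given above (18.7% higher and 19.2% lower in carcinomas, 17.0% higher and 16.3% lower in papillomas). Of 16 measured interferon ligands, receptors and signal transducers, 2 were higher and 5 lower in carcinomas, and 1 was higher and 4 lower in papillomas. Ifngr2, the signalling chain of the interferon gamma receptor, was higher by 0.67 in carcinomas (adjusted p = 1.79e-05) and by 0.63 in papillomas (adjusted p = 4.43e-05). Ifnar2, a chain of the type I receptor, fell by 0.60 in carcinomas (adjusted p = 0.00168), and the kinase gene Jak2 fell in both tumour types.

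Of 13 further genes of nucleic acid sensing, 5 were higher and 2 lower in carcinomas, and 3 were higher and 3 lower in papillomas. Sting1, the adaptor of cytosolic DNA sensing, averaged 9.32 ± 0.61 in carcinomas, 8.72 ± 0.07 in papillomas and 6.89 ± 0.23 in normal tissue (SD, n = 5 each), which is higher than normal by 2.43 in carcinomas (adjusted p = 2.41e-07) and by 1.83 in papillomas (adjusted p = 6.28e-06). Samhd1, a nucleotide hydrolase, was higher by 1.26 in carcinomas (adjusted p = 1.35e-06) and by 0.70 in papillomas (adjusted p = 0.000528), and Mavs, the adaptor of the RNA helicases, by 1.11 in papillomas (adjusted p = 2.45e-08). Zc3hav1, which encodes the antiviral zinc finger protein ZAP, fell by 1.39 in carcinomas (adjusted p = 6.71e-06) and by 2.09 in papillomas (adjusted p = 9.72e-08).

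Of the 43 further interferon-stimulated effectors, 5 were higher and 10 lower in carcinomas, and 1 was higher and 16 lower in papillomas. Without carcinoma array 4, 4 were higher and 13 lower in carcinomas, and 1 was higher and 22 lower in papillomas. Trim12a fell by 2.04 in carcinomas (adjusted p = 2.85e-07). Irgm2, an immunity-related GTPase, was lower by -1.56 in carcinomas (adjusted p = 0.00103) and by -1.80 in papillomas (adjusted p = 0.00035). Parp12 was lower by -1.27 in carcinomas (adjusted p = 0.000155) and by -2.25 in papillomas (adjusted p = 5.11e-07). Phf11d was higher in carcinomas by 1.65 (adjusted p = 0.00741), or by 1.06 without array 4 (adjusted p = 4.66e-05).

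Of 13 further class I genes, 2 were higher and 5 lower in carcinomas, and 1 was higher and 5 lower in papillomas. H2-K1, a classical heavy chain, was higher by 0.97 in carcinomas (adjusted p = 3.76e-05) and by 1.31 in papillomas (adjusted p = 1.99e-06). H2-Q4 was higher by 0.93 in carcinomas (adjusted p = 0.000852) and had no call in papillomas, at 0.25 (adjusted p = 0.359). Mr1, which presents vitamin metabolites, and H2-T23 fell. Mr1 differed by -1.41 in carcinomas (adjusted p = 4.29e-07) and by -1.33 in papillomas (adjusted p = 9.61e-07), and H2-T23 by -1.14 in carcinomas (adjusted p = 0.00145) and by -0.98 in papillomas (adjusted p = 0.0052). The H2 heavy chain genes are near copies of each other, and probes can be shared between them, so these values are uncertain. Of 14 further class II genes, 2 were higher and 2 lower in each tumour type, and 4 were lower in carcinomas without array 4. Rfx5 and Rfxap, subunits of the factor that binds class II promoters, were higher by 0.30 and 0.36 in carcinomas and by 0.38 and 0.56 in papillomas. Rfxank, a further subunit, went the other way. It was lower by -0.40 in papillomas (adjusted p = 0.0174) and differed by -0.31 in carcinomas (adjusted p = 0.0572). H2-DMb1, the partner of H2-DMa, fell by 0.66 in carcinomas (adjusted p = 0.00141).

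Some markers of the other cell types of the tissue also differed between groups, and their counts stand beside the same shares of all genes. Of 10 endothelial markers, 6 were higher in carcinomas, and 6 were higher and 1 was lower in papillomas (none lower without carcinoma array 4). Of 8 fibroblast and pericyte markers, 2 were higher and 3 lower in carcinomas, and 2 were higher and 5 lower in papillomas. Of 9 epithelial markers, 4 were lower in carcinomas and 5 in papillomas, with list means of 12.56 to 12.86 in carcinomas, 12.61 to 12.94 in papillomas and 13.18 to 13.24 in normal tissue. Of 11 T and NK cell markers, 3 were lower in carcinomas and 1 in papillomas. Those 3 were dim: in carcinomas and normal tissue Cd2 averaged 6.18 and 6.42, Ncr1 5.60 and 5.83, and Gzmb 5.73 and 6.13. Gzmb, the 1 called in papillomas, averaged 5.79 there. All of these lay below the lowest array median of 6.79, so the calls are no measure of cell numbers. The part of tissue composition in the differences of the 38 genes was not tested.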

How the data were processed

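RNA of whole tissue was labelled with biotin and hybridised to single-channel Affymetrix arrays, per the labels' protocols. Affymetrix Expression Console and RMA made the values, per the submitters' processing notes, and the deposited table holds log2 values for 41345 probe sets on 15 arrays. Versions, the genome build and the annotation are not given in the sources used here. RMA corrects background, quantile-normalises and summarises probes, which makes array totals alike by construction, and precision depends on how many arrays there are.

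Gene names came from the platform annotation: 23521 probe sets had 1 symbol, 1814 had several and 16010 had none. The brightest probe set stood for each of 22180 genes. limma 3.58.1 in R 4.3.3 fitted the 3 groups together (12 residual and 3.35 prior degrees of freedom), with Benjamini-Hochberg adjustment over all genes at 0.05. The script was tested on simulated data. The labels call the arrays biological replicates and do not say how many mice stand behind each, so p-values measure the spread between these samples. Same-numbered arrays of different groups correlated at -0.10 to 0.14 in their deviations, so numbers were not taken to pair them. The 38 genes, their roles and the gene lists were chosen with earlier results of these data known.

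Genes were named by role. Values on every array are given for those with a call and a log2 difference of at least 1, and also for B2m, H2-Eb1 and genes of carcinoma array 4, which were added after their values were seen. Others are given by counts, ranges and examples. Lists of 187 genes, of which 171 were measured, served as background. Promoters were searched on both strands. Alternatives were 12 settings, listed in the closing section.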

Additional observations from a re-analysis of the deposited data

Results flagged for a closer look

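Single arrays that lay far from the other 4 of their group, by Dixon's test at a critical value of 0.71, were found in 18 of 114 combinations of gene and group, where chance gives about 1 in 20. Carcinoma array 4 accounted for 14 of them, each at the high end. These were Ifit1 (11.17), Usp18 (10.97), Irf7 (10.84), Ddx58 (10.71), Xaf1 (10.65), Rsad2 (10.26), Oasl2 (10.23), Zbp1 (10.21), Rtp4 (10.01), Parp14 (9.33), Stat2 (9.29), Dhx58 (8.83), Gbp3 (8.65) and Isg15 (7.5). They come from 1 array and are not independent of each other.

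Each of the other 4 was a gene on another array. Bst2 was high in papilloma array 5, at 11.08. Tap1 was high in normal array 3, at 9.38, and Ciita in normal array 4, at 7.45. Tap2 was low in normal array 1, at 8.51.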

How the results depend on the processing

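The 12 settings were a model without the third group, array quality weights, a replicate block, robust moderation with a variance trend, quantile normalisation, a common median, dim genes left out, the mean of probe sets, all probe sets, unpooled variance per group, removal of chromosome-wide shifts, and leaving out each array. Of 40 calls of single genes, 25 held under all of them, 15 were lost under at least 1 and none changed direction. The count of genes lower in carcinomas than in normal tissue was 10, and became 17 with array quality weights, 6 with unpooled variance and 8 to 19 when 1 array was left out (19 without carcinoma array 4). In the other comparisons with normal tissue, leaving out 1 array gave 3 to 4 genes higher in carcinomas, 3 to 4 higher in papillomas and 13 to 22 lower in papillomas. Between carcinomas and papillomas, the 4 higher and 3 lower genes became 1 and 1 with only those groups in the model, and 0 and 0 with unpooled variance, where 4 higher and 4 lower genes had an unadjusted p under 0.05 and the lowest adjusted p was 0.0864. Leaving out 1 array gave 2 to 5 higher (2 without papilloma array 1) and 1 to 3 lower (1 without papilloma array 3 or 5). Other than for the settings with fewer samples, the cause of these changes was not tested. With the replicate number as a block, the counts were 4 higher and 10 lower in carcinomas, 3 and 14 in papillomas, and 3 and 2 between the tumour types. Of the 15 same-numbered pairs of arrays, 2 correlated above 0.1. The dim filter left 14278 genes and removed Ifit2, Isg15 and Gbp3 of the 38. Array number and signal over background, which is low for those 3 genes, limit what could be called.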
